A study of Mus musculus with 6 samples.

Results

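The genes described here encode the machinery of mitosis, in which duplicated chromosomes are condensed, attached to a spindle, separated and passed to a pair of daughter cells. They form a list of 44 genes matched to array probes by symbol through the probes' RefSeq accessions. Of these, 41 could be tested, among 14135 tested genes and 25066 tested features, the remainder of the features being probes without a gene name. RNA came from the epidermis of tail skin of wild-type C57BL/6 mice, 3 samples from young and 3 from aged animals, and the comparison asked which transcripts differ with age. The young mice were 8 weeks old, the mouse behind aged replicate 1 was 22 months old and those behind aged replicates 2 and 3 were 25 months old. All 6 samples share strain and genotype, and the epidermis was lifted from the dermis with EDTA, so hair follicle cells that stay with the sheet are included. Neither sex nor the number of animals per sample is stated in the labels, so the p-values rest on the spread among these 6 samples, part of which may be technical.

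Entry into mitosis is driven by the kinase CDK1 with cyclins A and B and by the Polo and Aurora kinases. The spindle checkpoint holds back the anaphase-promoting complex until every kinetochore is attached, after which securin and the cyclins are degraded and the cell divides. Transcripts of these genes accumulate late in the cell cycle, so their abundance in a tissue is widely read as a marker of cycling cells, which in epidermis lie mainly in the basal layer and in growing hair follicles.

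Many late cell cycle promoters carry a cell cycle homology region (CHR), the element at which MuvB complexes with B-MYB or FOXM1 act, close to CCAAT boxes bound by NF-Y. Promoters of genes for DNA replication more often carry E2F sites. RefSeq promoter windows of the GRCm38.p6 build, running from 250 bases before to 50 bases after the start of the gene, were matched for 38 of the 44 mitosis and spindle genes. The windows below are the 120 bases before the start, 5′ to 3′ on the strand of the gene. They show the 5 members of lowest p with a CHR in that stretch, then Aurka, the member of lowest p of all, and Rpa2, a replication gene, for contrast. Capitals mark matches, searched on both strands. The CHR was taken as TTTGAA or TTCGAA, the CCAAT box as those 5 letters, and the E2F site as any of 4 words (the word TTCCCGC, the word TTCGCGC, the word TTGCCGC or the word TTGGCGC).
Prc1, chr7:80294356-80294475, plus strand: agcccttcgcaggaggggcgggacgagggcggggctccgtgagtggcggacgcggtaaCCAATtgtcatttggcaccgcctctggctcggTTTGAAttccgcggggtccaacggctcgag
Cdk1, chr10:69352913-69353032, minus strand: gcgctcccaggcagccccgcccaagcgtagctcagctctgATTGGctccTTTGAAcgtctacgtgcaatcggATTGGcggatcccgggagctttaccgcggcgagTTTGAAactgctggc
Cdc20, chr4:118437344-118437463, minus strand: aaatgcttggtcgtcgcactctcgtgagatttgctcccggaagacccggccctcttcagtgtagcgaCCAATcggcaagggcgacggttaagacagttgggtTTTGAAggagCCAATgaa
Bub3, chr7:131560250-131560369, plus strand: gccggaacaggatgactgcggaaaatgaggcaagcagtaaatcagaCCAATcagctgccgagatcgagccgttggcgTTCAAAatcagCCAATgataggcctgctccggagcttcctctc
Mki67, chr7:135716380-135716499, minus strand: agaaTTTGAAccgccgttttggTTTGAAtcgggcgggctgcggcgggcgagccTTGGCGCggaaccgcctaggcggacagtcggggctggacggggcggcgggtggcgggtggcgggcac
Aurka, chr2:172370571-172370690, minus strand: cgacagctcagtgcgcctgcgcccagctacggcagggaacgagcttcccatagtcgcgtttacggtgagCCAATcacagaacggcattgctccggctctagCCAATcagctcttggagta
Rpa2, chr4:132768240-132768359, plus strand: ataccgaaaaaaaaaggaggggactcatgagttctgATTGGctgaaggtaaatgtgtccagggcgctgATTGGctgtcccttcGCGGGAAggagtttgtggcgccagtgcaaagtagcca

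Counted from the start of the gene, with -1 the base before it, the CHR of Prc1 began at -30 and its CCAAT box at -62. Cdk1 had CHR matches at -71 and -15, with CCAAT boxes at -80 and -48. In Cdc20 the CHR at -18 lay between CCAAT boxes at -53 and -8, and in Bub3 the CHR at -43 lay between those at -74 and -32. Mki67 differed from these in having CHR matches at -116 and -98, an E2F match at -67 and no CCAAT match in the printed stretch. In Aurka the CCAAT boxes stood at -51 and -19 and the CHR match lay after the start, at 32. Rpa2 had CCAAT boxes at -84 and -52 and an E2F match at -37, but no CHR in the printed stretch. No matches of different motifs overlapped in these 7 windows.

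Over the whole 300-base windows, a CHR match was present in 30 of 38 members (78.9%), against 1889 of 11237 tested genes with a matched window (16.8%) and 19.2% of all 32851 promoters. In 27 of those 30 members the nearest match lay within 50 bases of the start. The window ended 50 bases after the start, so every match beyond the start met this limit in advance. A CCAAT box was present in 28 of 38 members (73.7%), against 42.4% of tested genes and 37.4% of all promoters. Both motifs were present in 26 of 38 members (68.4%), against 7.01% of tested genes and 7.52% of all promoters. For E2F the members stood near the tested genes, with 8 of 38 (21.1%) against 17.9%, while all promoters held it in 9.57%. Genes of the G1/S transition and DNA replication showed the opposite order, with an E2F match in 25 of 38 (65.8%) and a CHR match in 8 of 38 (21.1%). A match is a run of letters and was not tested for binding. Within the members the CHR did not separate larger from smaller age differences: the median difference on the log2 scale was 0.49 over 28 tested members with a match and 0.58 over 8 without. The 8 without were Birc5, Ccnb1, Cenpe, Mad2l1, Ncaph, Nuf2, Nusap1 and Pttg1.

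**Figure D1:**
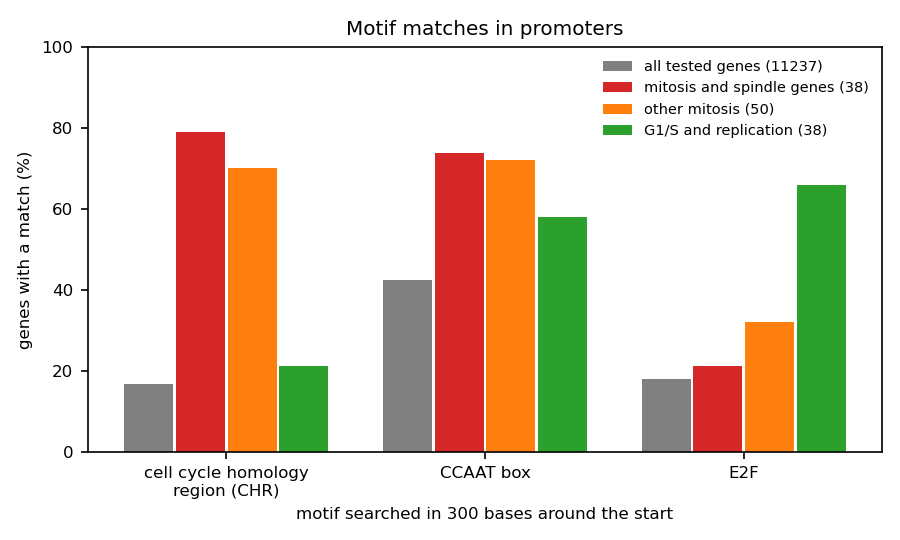
Share of genes (%, vertical axis from 0) whose 300-base promoter window holds a CHR, a CCAAT box or an E2F match, for all tested genes, the mitosis and spindle genes, other mitosis genes and G1/S and replication genes, with the number of matched windows in the legend. The bars of both mitosis lists stand at 78.9% and 70% for CHR against 16.8% for all tested genes, and the G1/S and replication list stands highest for E2F at 65.8%.

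In aged epidermis 40 of the 41 tested members had a higher mean than in young epidermis, against 8996 of 14135 named genes. The members differed by a median of 0.50 on the log2 scale (1.41-fold), with differences from -0.12 to 0.83. The median over all 14135 named genes was 0.093 (1.07-fold) and over all features 0.043. No member passed the threshold of an adjusted p under 0.05 in limma (Benjamini-Hochberg over all features), the lowest adjusted p being 0.114 for Aurka and Prc1. That threshold was passed by 16 of 25066 features (0.0638%), and by 0 with the replicate number as a block. At an unadjusted p under 0.05, 21 members were higher in aged epidermis (51.2%), against 9.81% of all features and 11.4% of named genes, and 0 were lower. In 22 members (53.7%) the lowest aged array lay above the highest young array, against 16.6% of all features and 19.5% of named genes.

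These counts moved with single arrays. The 21 members at an unadjusted p under 0.05 became 32 without young replicate 1, 9 without young replicate 2, 10 without young replicate 3 and 10 without aged replicate 2. The shares of all features that met the same rule in those fits were 10.1%, 4.53%, 4.97% and 6.81%, against 9.81% with all arrays. With the slide row as a block, a fit that sets the aged arrays against young replicate 3 alone, 6 members met it, against 2.88% of all features. With the replicate number as a block 23 met it, against 9.87%: Mki67, Bub3 and Racgap1 no longer did and Cenpa, Kif11, Kif2c, Mad2l1 and Ncaph did. Weighting the arrays by their estimated quality called 40 members in limma, but the estimation did not converge and 34.4% of all features were called with them; weights estimated gene by gene, added after the data were seen, called 5, namely Aurka, Bub1b, Cdca3, Prc1 and Pttg1, with 5.51% of all features. The 22 members without overlap became 39 without young replicate 1, where 32.9% of named genes met the same rule, and 38 without aged replicate 3, where 24.1% did. In bulk epidermis a change in the number of cells of a type and a change in RNA per cell cannot be told apart. Exact permutation of 6 arrays in groups of 3 has a smallest possible p of 0.1 for a single gene and was not used.

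**Figure D2:**
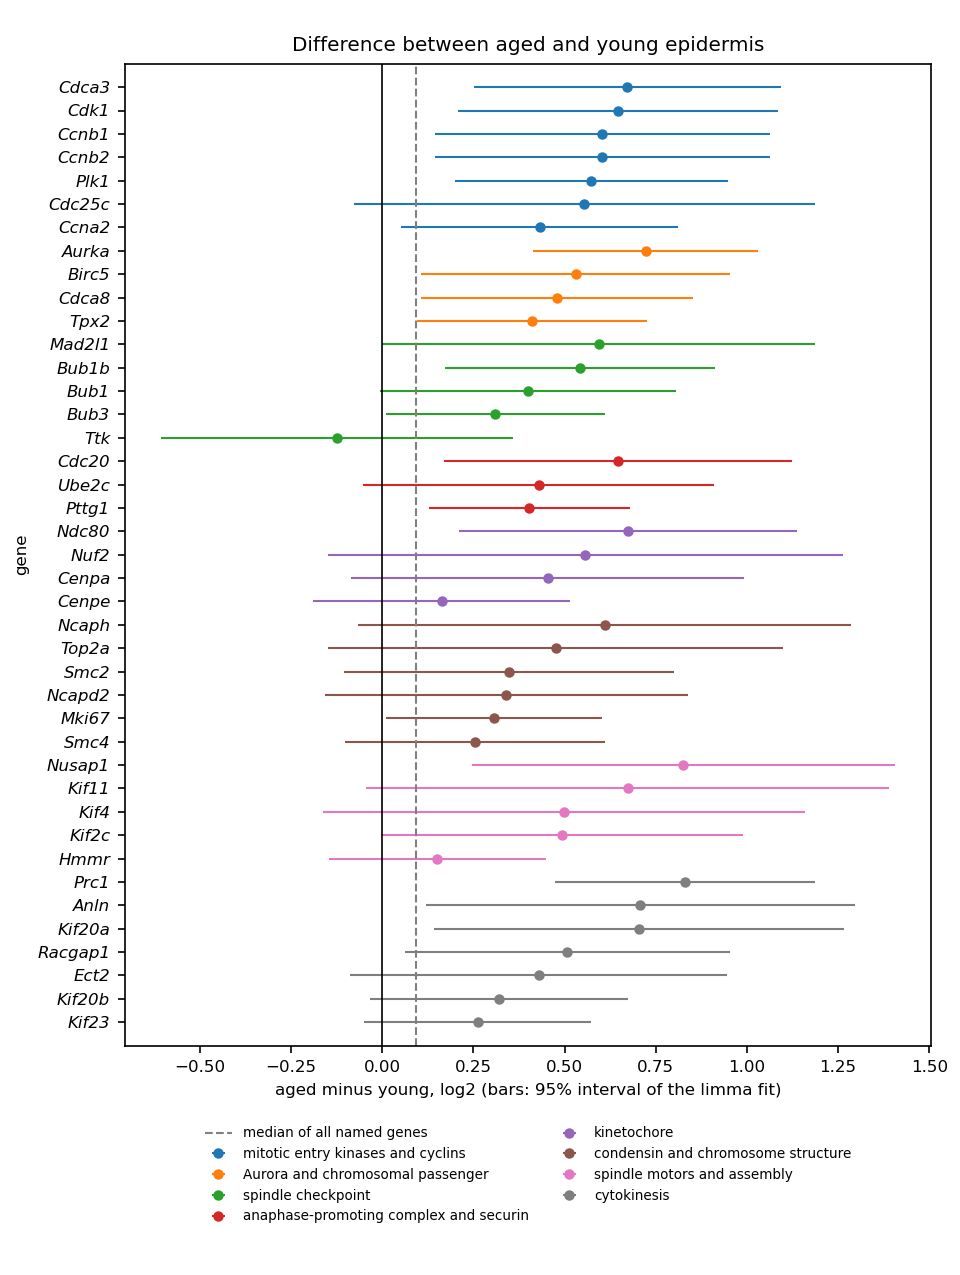
Difference between aged and young epidermis on the log2 scale (horizontal axis) for each of the 41 tested genes, coloured by role, with bars for the 95% interval of the limma fit and a dashed line at the median of all named genes, 0.093. All points except that of Ttk lie to the right of 0, and the points of Prc1 and Nusap1 lie farthest right at 0.83.

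**Figure D3:**
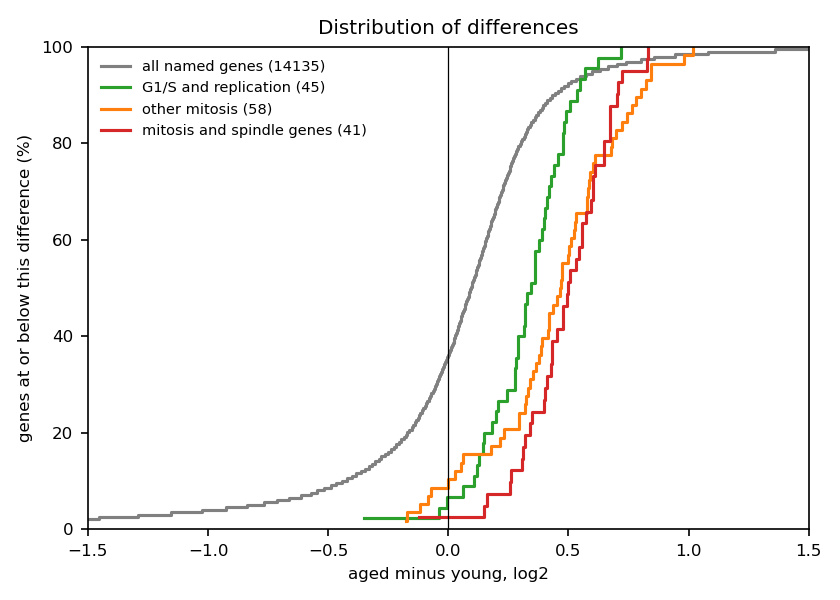
Cumulative share of genes (%, vertical axis) at or below each difference between aged and young epidermis (log2, horizontal axis, cropped at -1.5 and 1.5) for all 14135 named genes and 3 lists. The curves of the mitosis and spindle genes and of other mitosis genes run together, with medians of 0.50 and 0.47, to the right of G1/S and replication at 0.34 and of all named genes at 0.093.

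Values per array are given below as the log2 signal relative to the 75th percentile of the array, so that a value of 0 is as bright as that percentile. They compare the same probe between arrays and say nothing about the order of different genes. Differences are aged minus young, with the standard error of the limma fit over 3 arrays per group.

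The kinases and cyclins of mitotic entry had a median difference of 0.60 (1.52-fold) and lay between 0.43 and 0.67 in all 7 genes, of which 6 reached an unadjusted p under 0.05 and the same number showed no overlap. Cdk1, the kinase that starts mitosis, read -0.55, -1.12 and -0.95 in young replicates 1 to 3 and -0.12, -0.17 and -0.40 in the aged ones. All 3 aged arrays were above all young arrays, and the difference was 0.65 ± 0.18 (1.56-fold, adjusted p = 0.184 in limma). Its cyclin partners gave similar values. Ccnb1, cyclin B1, read 1.20, 0.61 and 0.90 in young and 1.63, 1.58 and 1.30 in aged epidermis, a difference of 0.60 ± 0.19 (adjusted p = 0.207 in limma). Ccnb2, cyclin B2, read 1.95, 1.44 and 1.51 against 2.24, 2.45 and 2.02, also 0.60 ± 0.19 (adjusted p = 0.207 in limma). In both cyclins the groups did not overlap, young replicate 1 was the highest young array and aged replicate 3 the lowest aged array.

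Plk1, the Polo kinase needed for spindle assembly and mitotic exit, read 1.38, 1.03 and 1.32 in young and 1.76, 2.01 and 1.68 in aged epidermis, without overlap. The difference was 0.57 ± 0.15 (1.49-fold, adjusted p = 0.176 in limma). Cdca3, which promotes mitotic entry through the removal of WEE1, read 2.21, 1.84 and 1.96 against 2.92, 2.67 and 2.44. Here too every aged array was above every young one, with a difference of 0.67 ± 0.17 (1.59-fold, adjusted p = 0.166 in limma). Ccna2, cyclin A2, was 1.35-fold higher without overlap, and Cdc25c, the phosphatase that activates CDK1, was 0.55 ± 0.26 higher with overlap, since aged replicate 3 at -2.93 lay below young replicate 1 at -2.77.

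Of the Aurora and chromosomal passenger genes, which correct spindle attachment and build the spindle, 4 of 5 were tested, with a median of 1.42-fold. All 4 reached an unadjusted p under 0.05 without overlap, at differences from 0.41 to 0.72. Aurka, the centrosome and spindle pole kinase, read 0.55, 0.74 and 0.77 in young and 1.51, 1.45 and 1.26 in aged epidermis. It had the lowest p of all members, with a difference of 0.72 ± 0.13 (1.65-fold, adjusted p = 0.114 in limma), and was the only member in which young replicate 1 was the lowest young array. Tpx2, the activator of Aurora A on the spindle, differed by 0.41 ± 0.13, but another of its probes, well above background on 4 arrays, differed by -0.19. Cdca8 (borealin) and Birc5 (survivin), which place Aurora B at the inner centromere, were 1.39-fold and 1.44-fold higher. Aurkb itself could not be tested, since its probe was well above background on 0 arrays.

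Spindle checkpoint genes had a median of 1.32-fold and differences from -0.12 to 0.59, with 2 of 5 at an unadjusted p under 0.05, Bub1b and Bub3; with the replicate block Mad2l1 took the place of Bub3. Bub1b, which encodes the checkpoint inhibitor BUBR1, read -1.09, -1.38 and -1.36 in young and -0.61, -0.63 and -0.96 in aged epidermis. The groups did not overlap and differed by 0.54 ± 0.15 (1.46-fold, adjusted p = 0.187 in limma). Bub3, its binding partner, was 1.24-fold higher without overlap. Bub1, the kinetochore kinase, read -1.68, -2.10 and -2.15 against -1.55, -1.46 and -1.72, with young replicate 1 above aged replicate 3 and a difference of 0.40 ± 0.17 (adjusted p = 0.277 in limma). Mad2l1, which binds CDC20 when kinetochores are unattached, differed by 0.59 ± 0.24 with overlap. Its other probes differed by 0.51 ± 0.49, well above background on 4 arrays, and by 0.15 ± 0.30, on 6 arrays.

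Ttk, the checkpoint kinase MPS1, was the exception to the direction of the list. It read -3.99, -4.68 and -4.22 in young and -4.55, -4.36 and -4.36 in aged epidermis, so the groups overlapped. The difference was -0.12 ± 0.20 with a 95% interval from -0.61 to 0.36 (adjusted p = 0.769 in limma). This probe was dim: it was well above background on 2 young arrays and 1 aged array, whereas the other 40 tested members were well above background on all 6. Without young replicate 1 its difference was 0.032, and without young replicate 2 it was -0.32.

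The genes of anaphase onset were higher by a median of 0.43 (1.35-fold) in 3 of 3, and 2 of them reached an unadjusted p under 0.05 without overlap. Cdc20, the activator of the anaphase-promoting complex, read 2.39, 2.00 and 2.23 in young and 2.85, 3.16 and 2.54 in aged epidermis, a difference of 0.65 ± 0.20 (1.56-fold, adjusted p = 0.202 in limma). Pttg1, securin, which restrains separase until anaphase, read 4.02, 4.01 and 3.98 against 4.27, 4.49 and 4.47. Its young arrays were the closest together of any member, with an SD of 0.02, and the difference of 0.40 ± 0.11 (1.32-fold, adjusted p = 0.185 in limma) left no overlap. Another probe of Pttg1, well above background on 6 arrays, differed by 0.25 ± 0.23. Ube2c, the ubiquitin-conjugating enzyme of that complex, differed by 0.43 ± 0.20 with overlap.

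Of the kinetochore genes 4 of 5 were tested, with a median of 1.42-fold, and Ndc80 alone reached an unadjusted p under 0.05, joined by Cenpa with the replicate block. Ndc80, part of the complex that grips spindle microtubules, read -1.91, -2.02 and -2.40 in young and -1.16, -1.53 and -1.62 in aged epidermis, without overlap. The difference was 0.67 ± 0.19 (1.60-fold, adjusted p = 0.187 in limma). Its partner Nuf2 differed by 0.56 ± 0.29 and Cenpa, the centromeric histone, by 0.45 ± 0.22, both with overlap. Cenpe, the kinetochore motor, was among the smallest differences, 0.16 ± 0.15 with a 95% interval from -0.19 to 0.52. Cenpf could not be tested, with a probe well above background on 0 arrays.

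Condensin and chromosome structure genes had the smallest median of any role group, 0.34 (1.27-fold), and 1 of 6 tested genes, Mki67, reached an unadjusted p under 0.05; with the replicate block Ncaph did so in its place. Mki67, whose product Ki-67 coats mitotic chromosomes and is the common stain for cycling cells, read 3.55, 3.39 and 3.45 in young and 3.76, 3.91 and 3.63 in aged epidermis. The groups did not overlap, at a difference of 0.31 ± 0.12 (1.24-fold, adjusted p = 0.263 in limma), and another probe of the gene differed by 0.56. Top2a, the topoisomerase that untangles sister chromatids, read 0.19, -0.74 and -0.30 against 0.39, 0.23 and -0.03. Its young replicate 1 lay above aged replicate 3, and the difference of 0.48 ± 0.26 had an adjusted p of 0.370 in limma. The condensin subunits Ncaph, Smc2, Ncapd2 and Smc4 differed by 0.61 ± 0.28, 0.35 ± 0.19, 0.34 ± 0.20 and 0.25 ± 0.15, all with overlap, and Ncapg was well above background on 0 arrays.

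The spindle motor and assembly genes had a median of 1.41-fold in 5 tested genes, 1 of them at an unadjusted p under 0.05, or 3 once the replicate number was a block. The gene without the block was Nusap1, which bundles spindle microtubules near chromosomes, and it read 0.05, -0.80 and -0.40 in young and 0.56, 0.54 and 0.22 in aged epidermis. The difference of 0.83 ± 0.24 (1.77-fold, adjusted p = 0.190 in limma) was among the largest of the list, and the groups did not overlap. Kif11, the motor that pushes the spindle poles apart, read -2.15, -3.13 and -2.34 against -1.57, -1.88 and -2.16. Its difference was 0.67 ± 0.29, and aged replicate 3 lay just below young replicate 1. Kif2c, a microtubule depolymerase, and Kif4, a chromosome-bound motor, differed by 0.49 ± 0.20 and 0.50 ± 0.27 with overlap. Hmmr, a spindle assembly factor, differed by 0.15 ± 0.12, with a 95% interval from -0.15 to 0.45.

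Among the genes of cytokinesis 4 of 7 reached an unadjusted p under 0.05 (Racgap1 not with the replicate block), 5 showed no overlap and the median was 0.51 (1.42-fold). Prc1, which bundles the microtubules of the central spindle, read 2.00, 1.60 and 1.87 in young and 2.58, 2.79 and 2.59 in aged epidermis. It had the largest difference of the list, 0.83 ± 0.15 (1.78-fold, adjusted p = 0.114 in limma), with a gap between the groups wider than the range within either. Without aged replicate 1 its adjusted p was 0.0464 in limma, the only call that leaving out a single array gave a member. In that fit 1318 of 25066 features passed (5.26%). Anln (anillin), the scaffold of the cleavage furrow, was 1.63-fold higher without overlap, as was Racgap1, a subunit of centralspindlin, at 1.42-fold. Kif20a, a central spindle motor, was 1.63-fold higher, but aged replicate 3 at 0.50 lay just under young replicate 1 at 0.52. Kif20b and Kif23 differed by 0.32 ± 0.15 and 0.26 ± 0.13 without overlap, and Ect2, the activator of RhoA at the furrow, by 0.43 ± 0.21 with overlap.

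**Figure D4:**
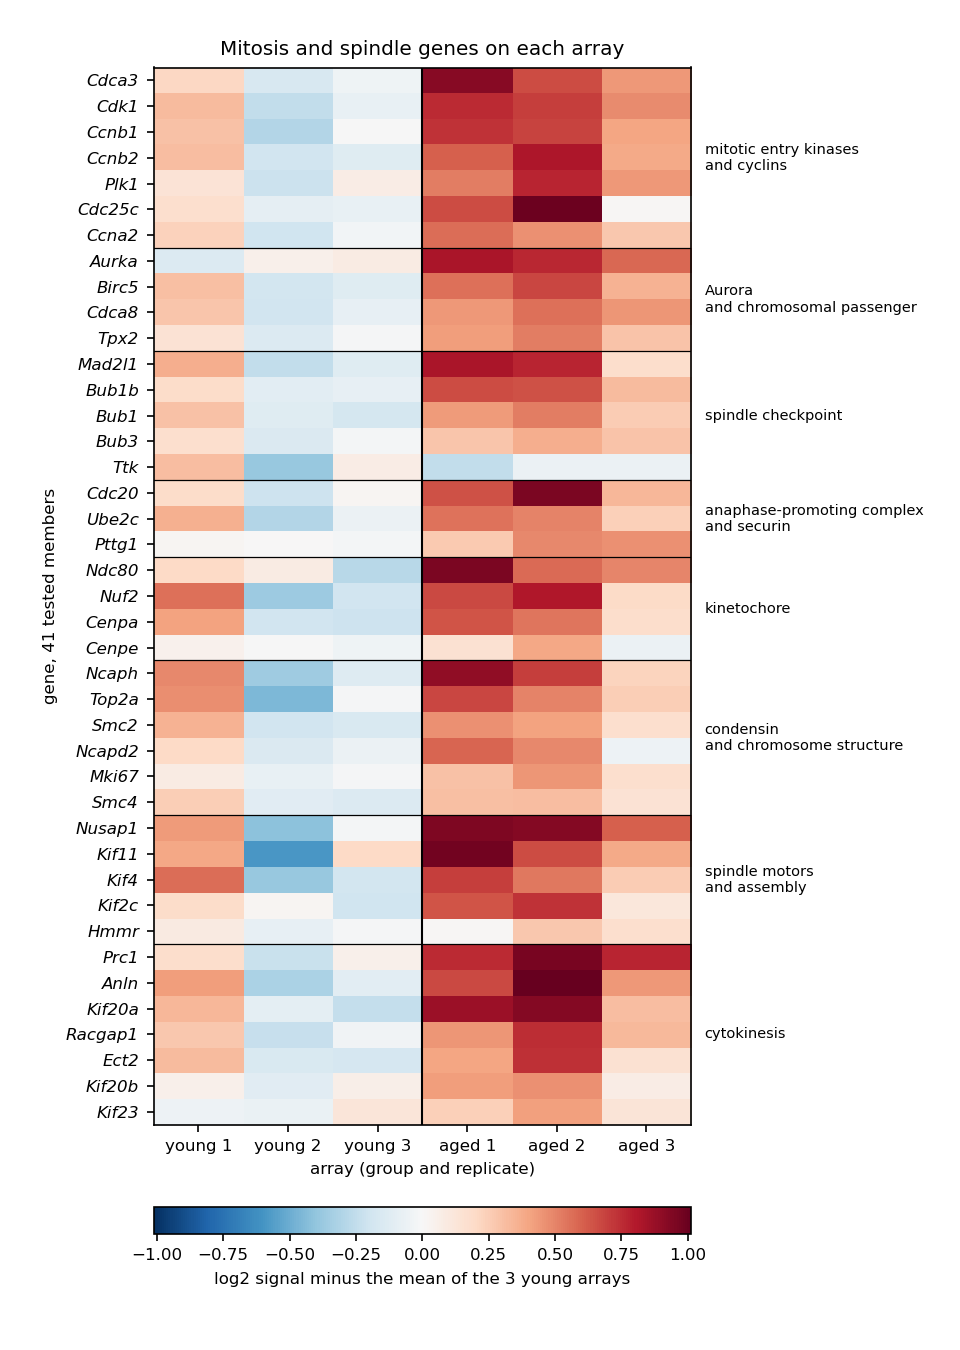
Log2 signal of each of the 41 tested genes on each of the 6 arrays, as the deviation from the mean of the 3 young arrays (colour scale), ordered by role. Aged replicates 1 and 2 are the reddest columns, aged replicate 3 is paler, and young replicate 1 is redder than the other young arrays in nearly every row.

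The members also varied together among the arrays of each group. Their median deviation from the young mean was 0.27, -0.19 and -0.06 on young replicates 1 to 3 and 0.61, 0.65 and 0.27 on the aged ones, so young replicate 1 and aged replicate 3 stood level. Over all named genes the same medians ran from -0.02 to 0.17. Young replicate 1 was the highest young array in 38 of 41 members, against 46.5% of named genes, and aged replicate 3 was the lowest aged array in 35 of 41, against 27.8%. Aged replicate 3 was the highest aged array in 0 of 41 members, against 45.8% of named genes.

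Read pair by pair, aged replicates 1 and 2 each exceeded young replicate 1 in 39 of 41 members, by medians of 0.29 and 0.38. Against young replicates 2 and 3 they exceeded in 40 or 41 of 41, by medians from 0.68 to 0.80. Aged replicate 3 exceeded young replicates 2 and 3 in 40 and 39 members, by 0.46 and 0.35, but young replicate 1 in 23 of 41 (56.1%), by a median of 0.041. Over all named genes that last pair was higher in 63.4%, by a median of 0.12, while aged replicate 1 exceeded young replicate 1 in 52.3% and the other pairs ran from 55.7% to 68.0%. These pairs share arrays and were not tested. The median difference therefore ranged, by the pair of arrays taken, from 0.041 to 0.80 on the log2 scale. The pair at 0.041 also differed in transcripts of the sex chromosomes, which are described next. Pairs alike in the Y-linked Ddx3y, Eif2s3y and Kdm5d ranged from 0.29 to 0.80.

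Young replicate 1 and aged replicate 1 also differed from the other 4 arrays in transcripts of the sex chromosomes. The Y-linked genes Ddx3y, Eif2s3y and Kdm5d were well above background on those 2 arrays and on 0 of the other 4, and a probe of Xist, the X-inactivation transcript, on the other 4 and on neither of these. Another probe of Xist was also well above background on young replicate 1, and 1 of 2 probes of the Y-linked Uty also on young replicate 3. Without both samples numbered 1, 41 of 41 members were higher in aged epidermis, and 39 showed no overlap, where 46.7% of named genes met the same rule for 2 arrays against 2. In that fit 0 members passed the adjusted threshold in limma, the lowest adjusted p being 0.0749 for Prc1, while 30 had an unadjusted p under 0.05, against 13.4% of all features. The part of sex in the difference between the young arrays was not tested.

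Of the 44 members 12 had more than 1 probe and 10 had several that could be tested. In 9 of these 10 all probes were higher in aged epidermis, Tpx2 being the exception. The widest spread between probes of a gene was 0.60 in Kif2c, from 0.49 to 1.09, and the probes of Ccnb1 spanned 0.28 to 0.87.

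Other genes of mitosis showed the same direction. Of 60 listed 58 were tested and 52 were higher in aged epidermis, by a median of 0.47 (1.38-fold). None passed the adjusted threshold. At an unadjusted p under 0.05, 29 were higher (50%), against 11.4% of named genes, and 0 were lower. The groups did not overlap in 26 (44.8%), against 19.5% of named genes. The 4 of lowest p were Sgo1 (shugoshin, which protects centromeric cohesion), Gtse1, Cenpl and Troap, with adjusted p from 0.0983 to 0.139 in limma. Sgo1 read -0.33, -0.36 and -0.26 in young and 0.49, 0.63 and 0.33 in aged epidermis, a difference of 0.80 ± 0.12. The differences were 0.61 ± 0.12 for Gtse1, 0.51 ± 0.11 for Cenpl and 0.98 ± 0.22 for Troap, which was well above background on 1 of 3 young arrays, so that its fitted difference rests partly on values near background.

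Genes of the G1/S transition and DNA replication, which act before mitosis in the same cycle, were higher in 42 of 45 tested, by a smaller median of 0.34 (1.27-fold). Of these 9 had an unadjusted p under 0.05 and were higher, a share of 20% beside 11.4% of named genes. No overlap was seen in 8, a share of 17.8% beside the 19.5% of named genes above. The 4 of lowest p were Slbp, Ccne1, Lig1 and Rfc4, at 0.46 ± 0.13, 0.57 ± 0.17, 0.39 ± 0.12 and 0.55 ± 0.17, with adjusted p from 0.193 to 0.209 in limma. Their array pattern resembled that of the mitosis genes in the young group, with median deviations of 0.33, -0.19 and -0.13, and was flatter in the aged group, at 0.42, 0.35 and 0.26. Aged replicate 3 exceeded young replicate 1 in 15 of these 45 genes (33.3%), against the 63.4% of named genes above.

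Among 22 transcriptional regulators of the cycle 16 were higher, beside 8996 of 14135 named genes, with a median of 0.20 (1.15-fold). Foxm1, the forkhead factor that activates late cell cycle genes, read -0.18, -0.83 and -0.37 on the young arrays, against 0.82, 0.56 and 0.13 on the aged arrays. The groups did not overlap and differed by 0.96 ± 0.24 (1.95-fold, adjusted p = 0.161 in limma), a larger difference than that of any tested member. Mybl2, which encodes B-MYB, differed by -0.11 ± 0.13 and is named here after its values were seen, for its place beside FOXM1 at CHR elements. E2f5, a repressor E2F, differed by -0.40 ± 0.13, Nfyb, a subunit of the CCAAT-binding factor, by 0.44 ± 0.20 and Rb1 by 0.21 ± 0.11.

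Inhibitors of cyclin-dependent kinases, a list that counts the CDK1-inhibiting kinases Wee1 and Pkmyt1 beside the Cdkn genes, were also higher in 9 of 9 genes. Their median was 0.26 (1.20-fold), and 8996 of 14135 named genes were higher. Wee1, Cdkn1b and Pkmyt1 differed by 0.019, 0.087 and 0.095, beside a median of 0.093 over all named genes. Cdkn2a, which encodes p16 and p19ARF, was well above background on 0 young arrays and on 3 aged ones, at least 5.81-fold higher. The bound sets the aged mean against the young arrays' detection limit. Cdkn2a passed the filter through the aged arrays alone, so no p is given and its direction lends no support to the 9 of 9. The other 3 named by p, Cdkn2d, Cdkn2c and Cdkn2b, differed by 0.60 ± 0.13, 0.31 ± 0.14 and 0.27 ± 0.15 without overlap. Subunits and partners of the anaphase-promoting complex, most of which are present throughout the cycle, were higher in 8 of 12 tested, by a median of 0.10. That share lay near the share of all named genes (8996 of 14135). Of these 1 gene (8.33%, beside 11.4% of named genes), Anapc7 at 0.39 ± 0.12, reached an unadjusted p under 0.05 and was higher.

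Markers of cell types in tail epidermis differed between the groups as well, and their part in the mitosis differences was not tested. Basal keratinocyte markers, the layer in which most interfollicular divisions occur, were higher in 9 of 10 by a median of 0.26, Krt15 being lower at -0.30. Their summed signal ranged from 1079 to 1144 in young and from 1174 to 1326 in aged epidermis, in units of the array's 75th percentile. Sums here and below follow the brightest probes most, which in the basal list were Krt5 and Krt14. Suprabasal markers were higher in 6 of 10, with a median of 0.02 and sums of 3411 to 3529 in young and 3170 to 3768 in aged epidermis. Basal deviations on aged replicates 1 to 3 were 0.13, 0.28 and 0.38, beside mitosis deviations of 0.61, 0.65 and 0.27, a relation that was not tested.

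Marker lists of the hair follicle were lower in aged epidermis. The hair matrix and hair shaft list was lower in 13 of 13 tested, by a median of -2.52. Its summed signal ran from 724 to 1206 in young and from 83.1 to 606 in aged epidermis. In this list Krt31 and Krt35, at -3.37 and -3.95, are also keratins of the tail scales, so the list does not mark the follicle alone. Inner root sheath markers were lower in 7 of 8 by -3.15, with sums of 701 to 996 against 38.3 to 547, and follicle stem cell markers in 7 of 7 by -0.43, with sums of 17.4 to 22.0 against 10.4 to 21.8. Hair matrix deviations were -0.56, -2.94 and -3.87 on aged replicates 1 to 3, beside mitosis deviations of 0.61, 0.65 and 0.27. On young replicates 1 to 3 the hair matrix deviations were 0.20, -0.43 and 0.22, beside mitosis deviations of 0.27, -0.19 and -0.06. The relation between these lists was not tested.

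Of other cells, melanocyte markers were lower in 8 of 8 by -1.30, with a summed signal from 15.4 to 19.4 in young and from 5.21 to 14.0 in aged epidermis. Langerhans cell markers were lower in 6 of 7 by -1.76, at 12.3 to 17.8 against 3.82 to 16.7, and stood at -4.02 on aged replicate 1 and 0.02 on aged replicate 3. Of these markers Cd207, Itgax and H2-Aa were well above background on only 2 aged arrays. The values of -1.76 and -4.02 therefore rest partly on readings near background. T cell and sebocyte medians were 0.04 and 0.08, with sums of 2.58 to 3.83 against 4.19 to 10.4 and of 28.9 to 57.2 against 19.9 to 89.4. The aged T cell sums came mostly from Thy1, which differed by 1.60 ± 0.47, while Cd3e, Lck and Cd3g differed by 0.07, 0.02 and -0.97. Cd3g was well above background on only 2 young arrays and 1 aged array. Fibroblast markers were lower in 3 of 4 by -2.24, at 5.30 to 8.15 against 2.51 to 20.6. The highest of these sums came mostly from Dcn, at 4.34 on aged replicate 1. Pdgfra and Lum were well above background on 0 arrays. Col3a1 was so on 3 young arrays and 0 aged ones, so the fibroblast median rests partly on readings near background. The 2 tested endothelial markers had a median of -0.22, at 4.43 to 5.23 against 4.21 to 4.71, and Cdh5 and Tek were well above background on 0 arrays, as was Cd3d of T cells.

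**Figure D5:**
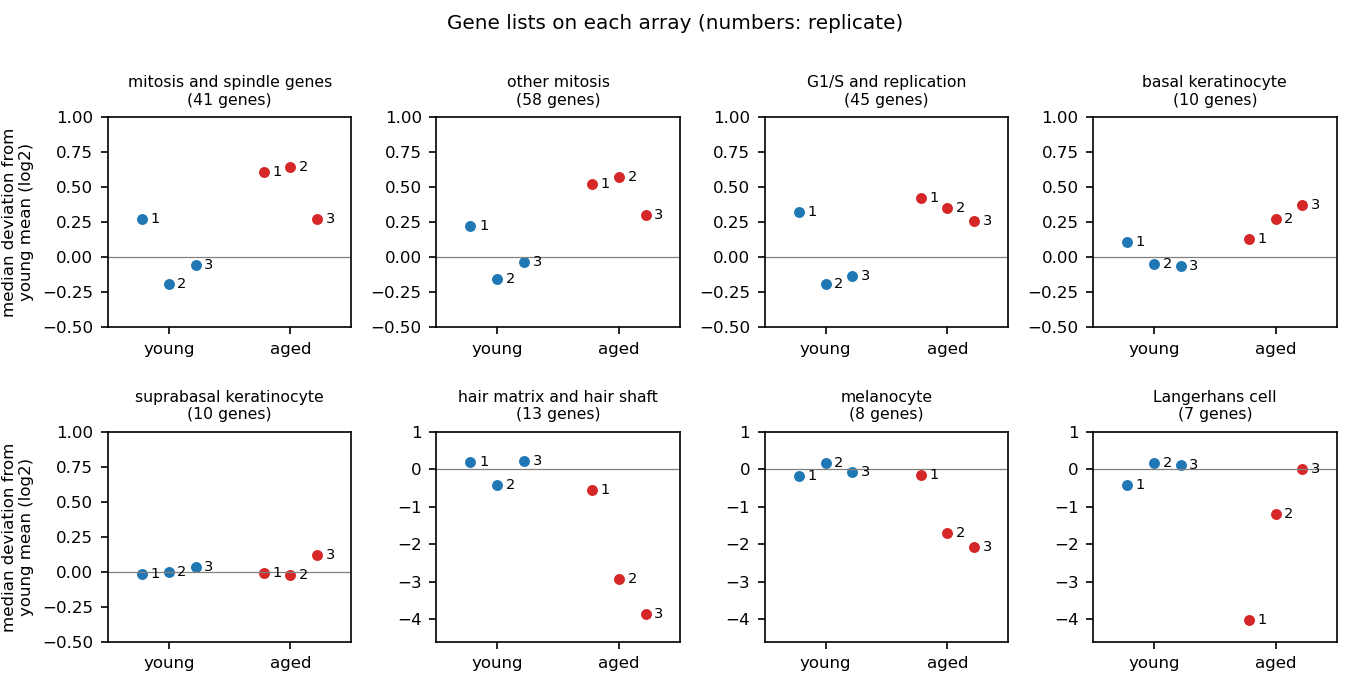
Median deviation from the young mean (log2, vertical axis) of 8 gene lists on each of the 6 arrays, with the replicate number beside each point; the scale differs between panels of keratinocyte and cycle genes and panels of hair, melanocyte and Langerhans cell markers. The mitosis lists are highest on aged replicates 1 and 2, and the mitosis and spindle list is level between young replicate 1 and aged replicate 3. The basal keratinocyte list is highest on aged replicate 3, and the hair list stands at -3.87 there.

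The 75th percentile of the processed signal lay between 230.2 and 300.3 units, 50.02% to 54.38% of 55681 probes were well above background, and 0 spots were saturated. Aged replicate 3 was lowest in both the percentile and the share of probes. After scaling, its median deviation over all named genes was the highest of the arrays, at 0.17. The part of this in its mitosis values was not tested. Precision is limited by the small number of arrays.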

How the data were processed

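Total RNA of each of the 6 samples was amplified as cDNA and labelled with Cy3 for Agilent arrays of 1 colour, per the protocols in the labels, and read with Feature Extraction 11.5.1.1 on 1 slide in 1 scan, per the file headers. The deposited processed signal is an intensity on a linear scale, background-subtracted within each array by the scanner software, per the file headers. The authors' deposited table holds log2 values of 33870 probes, which correlated at 0.9999 or more on each array with the scanner values scaled to the 75th percentile and centred on each probe's median. Its column medians were -0.013, -0.021 and -0.021 for young replicates 1 to 3 and -0.0087, 0.016 and 0.071 for the aged ones.

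Each array's log2 values were set relative to its 75th percentile. Control spots and 116 to 170 outlier spots per array were left out. Probes were named through RefSeq accessions (GRCm38.p6 table): 28331 of 55681 matched, for 21368 genes. Probes well above background on at least 3 arrays were kept, the brightest per gene. The fit used limma 3.58.1 in R 4.3.3 (lmFit and eBayes, two-sided, no covariate), with Benjamini-Hochberg adjustment over 25066 features and a threshold of 0.05; the script was tested on simulated data. An "at least" fold sets the brighter mean against, per dim array, whichever is higher, that probe's own signal or the lowest one well above background.

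The members and lists were chosen with earlier results of these data known. Full statistics are given for the 12 members of lowest p and for each member lower in aged epidermis, and up to 4 genes by p are named per related list. Same-numbered samples deviated together (r = 0.414, 0.259 and 0.102 over all features), which by the rule used counts as pairing, although no label says what the numbers share. Aged replicate 3 also correlated with young replicate 2 at 0.286, above the values of the samples numbered 2 and 3. The samples numbered 1, at 0.414, were also alike in Y-linked transcripts. The pairing is therefore uncertain. Other scalings, filters, probe rules, blocks, array weights and left-out arrays were tried.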

Additional observations from a re-analysis of the deposited data

How the results depend on the processing

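No member passed the adjusted threshold in limma under quantile normalization, median scaling, normexp background, either detection filter, the mean of probes, the authors' table, or the slide row as a block, and 40 of 41 were higher in each of these except the filters, with 40 of 40 and 42 of 44. Median scaling moved the median of all features to 0.12 and that of the members to 0.57. With the replicate number as a block 0 members passed and 23 had an unadjusted p under 0.05, a net count in which 3 members were lost and 5 gained; no member's side of the adjusted threshold changed. A block for slide row left 6 members at an unadjusted p under 0.05; that fit sets the aged arrays against young replicate 3 alone. Array weights called 40 members, and 40 had an unadjusted p under 0.05, with 8623 features called; their estimation did not converge and put most weight on aged replicate 2. Weights estimated gene by gene, added after the data were seen, called 5 members with 1381 features, and 38 had an unadjusted p under 0.05. Leaving out each array in turn gave 0 to 1 members past the adjusted threshold, 9 to 32 at an unadjusted p under 0.05 and 22 to 39 without overlap. Without both samples numbered 1, 39 members showed no overlap. Ttk ranged from -0.32 to 0.032 with an array left out, reversing to 0.032 without young replicate 1, and reversed to 0.096 without both samples numbered 1. The cause of these shifts was not tested. Signal over background limits Ttk, and Aurkb, Cenpf and Ncapg could not be read.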

Other observations

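Outside the members, the largest difference among other mitosis genes was that of Pbk, a mitotic kinase, at 1.02 ± 0.25 (2.03-fold, adjusted p = 0.159 in limma), named after its values were seen. It read -0.38, -1.13 and -1.04 in young and 0.49, 0.11 and -0.09 in aged epidermis, and the groups did not overlap. Cenpw, a centromere protein, followed among genes well above background on all arrays, at 0.84 ± 0.27. In the other direction, 6 of the 58 other mitosis genes were lower in aged epidermis. They included Cdc25b, a phosphatase that activates CDK1, at -0.17 ± 0.14, Bora, a cofactor of Aurora A, at -0.17 ± 0.15, and Espl1, separase, at -0.087 ± 0.13. None of the 6 reached an unadjusted p under 0.05.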
